A study of Mus musculus with 4 samples.

Results

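A set of 10 genes that control entry into the cell cycle was followed in B220+CD43+ cells of mouse bone marrow, a gate that holds pro-B cells. They are the D-type cyclin genes Ccnd1, Ccnd2 and Ccnd3, the kinase genes Cdk4 and Cdk6, the inhibitor genes Cdkn1b and Cdkn2c, the retinoblastoma gene Rb1, and Myc and Pim1. They were chosen by name, as genes of G1 control in B-cell precursors, and all 10 were found among the 23312 genes listed for each library.

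The samples were 4 RNA sequencing libraries, 2 from Cnot3 fl/fl RERTCre mice and 2 from Cnot3 +/+ RERTCre mice, all of the C57BL/6 strain. RERTCre is a Cre recombinase that tamoxifen activates, and every mouse of both genotypes carried it and received tamoxifen. Each dose was 1 mg, given on days 1, 2, 4 and 7, and B220+CD43+ cells were sorted from the marrow on day 10. The design text speaks of individual mice, while age, sex, the driver of the Cre and the exons flanked by loxP sites are not stated in the labels. The Cnot3 protein belongs to the CCR4-NOT complex, which trims poly(A) tails, and the comparison asked how transcript levels differ when tamoxifen has induced its deletion.

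In G1 phase, D-type cyclins bind and activate Cdk4 and Cdk6, and these kinases phosphorylate the Rb protein, which then releases E2F transcription factors that switch on genes of DNA replication. The INK4 inhibitors, among them p18 encoded by Cdkn2c, bind Cdk4 and Cdk6, whereas p27 encoded by Cdkn1b binds cyclin-kinase complexes. Pro-B cells divide under signals of the interleukin-7 receptor, which acts through STAT5, and cyclin D3 is required for the expansion of B-cell precursors. Myc drives growth and cell cycle genes, and Pim1 is a STAT5-induced serine/threonine kinase.

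Levels are in FPKM, a unit that divides counts of fragments by transcript length and by a library total, as deposited by the authors. How the totals were scaled between libraries was not given. Relative depth, read from the spacing of the lowest values, was 0.746 to 1 over the 4 libraries, and absolute depth is unknown. Cnot3 itself was at 39.0 to 41.6 FPKM in the 4 libraries, a value over the whole gene that does not check the deletion. Cnot3 +/+ replicate 1 stood apart in the Y-linked gene Ddx3y, at 16 FPKM, and in Xist, at 0.0242 FPKM. Xist was at 54.3 to 63.1 FPKM and Ddx3y at 0 to 0.0093 FPKM in the remaining 3 libraries. By these transcripts Cnot3 +/+ replicate 1 came from male cells and the remaining 3 libraries from female cells. The Cnot3 +/+ pair thus mixed the sexes, and the part of sex in the differences was not tested. Cnot3 +/+ replicate 2 was the highest library for all 12 proliferation markers examined and for 10 of 12 pro-B markers. The pro-B genes Cd79a and Dntt were detected at 62.4 to 152 and 216 to 255 FPKM. Siglech, a defining gene of plasmacytoid dendritic cells, which are B220+ as well and can fall in such a gate, was at 1115 to 1456 FPKM. In bulk samples a smaller share of a cell type and less RNA per cell cannot be told apart.

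The promoter sequences shown are those of the inhibitor that fell (Cdkn2c), of the inhibitor whose genotypes overlapped (Cdkn1b), and of the kinase gene with the most E-box matches (Cdk4). They are RefSeq windows of 300 bases on GRCm38.p6 around an annotated start site, and 6 of the 10 genes had 9 such windows. Capitals mark matches on either strand to CACGTG, the E-box that Myc and related factors recognise, or to the GC box GGGCGG.
Cdkn2c (chr4:109666707-109667006, minus strand): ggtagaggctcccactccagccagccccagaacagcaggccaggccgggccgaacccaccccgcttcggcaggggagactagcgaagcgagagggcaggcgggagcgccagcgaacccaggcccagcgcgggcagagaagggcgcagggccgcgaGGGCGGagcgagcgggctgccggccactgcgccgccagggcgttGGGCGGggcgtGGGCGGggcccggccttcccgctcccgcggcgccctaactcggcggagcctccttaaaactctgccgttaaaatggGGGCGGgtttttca
Cdkn2c, second start (chr4:109665323-109665622, minus strand): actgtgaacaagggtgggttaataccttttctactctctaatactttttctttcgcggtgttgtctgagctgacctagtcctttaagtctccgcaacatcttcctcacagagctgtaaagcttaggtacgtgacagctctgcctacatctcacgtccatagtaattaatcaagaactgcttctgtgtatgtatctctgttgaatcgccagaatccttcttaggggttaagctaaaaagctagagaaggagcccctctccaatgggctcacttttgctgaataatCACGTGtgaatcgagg
Cdkn1b (chr6:134920151-134920450, plus strand): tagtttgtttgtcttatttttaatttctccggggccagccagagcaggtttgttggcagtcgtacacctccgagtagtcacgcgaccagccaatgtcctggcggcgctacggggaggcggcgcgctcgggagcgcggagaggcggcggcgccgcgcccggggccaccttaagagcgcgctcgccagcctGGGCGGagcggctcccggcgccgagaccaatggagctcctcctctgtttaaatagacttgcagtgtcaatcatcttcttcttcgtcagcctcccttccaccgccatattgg
Cdk4 (chr10:127063285-127063584, plus strand): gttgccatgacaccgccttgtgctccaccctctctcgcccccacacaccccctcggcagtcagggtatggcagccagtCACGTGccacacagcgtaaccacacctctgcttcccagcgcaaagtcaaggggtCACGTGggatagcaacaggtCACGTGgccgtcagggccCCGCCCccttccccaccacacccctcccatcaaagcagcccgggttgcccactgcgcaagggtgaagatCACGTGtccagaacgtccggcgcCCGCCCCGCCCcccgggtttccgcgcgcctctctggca

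The outer Cdkn2c window was 73.3% G and C and held 4 GC boxes, whereas the window of the second start was 44% G and C and held 1 E-box and no GC box. The Cdkn1b window held 1 GC box. The Cdk4 window held 4 E-boxes and 3 GC boxes, the last pair of which share a base. Among 32817 mouse windows of the same length, 7.15% held an E-box and 35.6% a GC box. The E2F strings TTTCCCGC, TTTCGCGC, TTTGCCGC and TTTGGCGC were in none of the 9 windows and in 2.26% of all windows. The string TTCNNNGAA, which STAT factors recognise, was also in none of the 9 windows and in 8.29% of all windows. The TATA box string TATAAA was in 1 of them, that of Cdk6, and in 13.6% of all windows. These are matches of letters and were not tested for binding.

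Of the 10 genes, 1 fell in Cnot3 fl/fl libraries, 0 rose and 9 were not called (limma on log2(FPKM + 1), Benjamini-Hochberg over all 11017 genes tested). Across all genes tested, 3.28% were called lower and 6.22% higher, so the share of the 10 called either way was close to the background of 9.49%. At an unadjusted p under 0.05, 33.8% of all genes passed. The median log2 fold change was -0.25 over the 10 genes and -0.01 over all genes tested, with 9 of the 10 below 0. Without Cnot3 +/+ replicate 2 it was -0.22 over the 10 genes, with 6 of them below 0. For 5 of the 10 the genotypes did not overlap, as in 64.4% of all genes tested. In all 5 the Cnot3 fl/fl pair was the lower, as in 31.7% of all genes, and in none the higher, as in 32.7% of all genes. With 2 libraries against 2, an exact permutation test for 1 gene cannot give a p under 0.333.

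**Figure D1:**
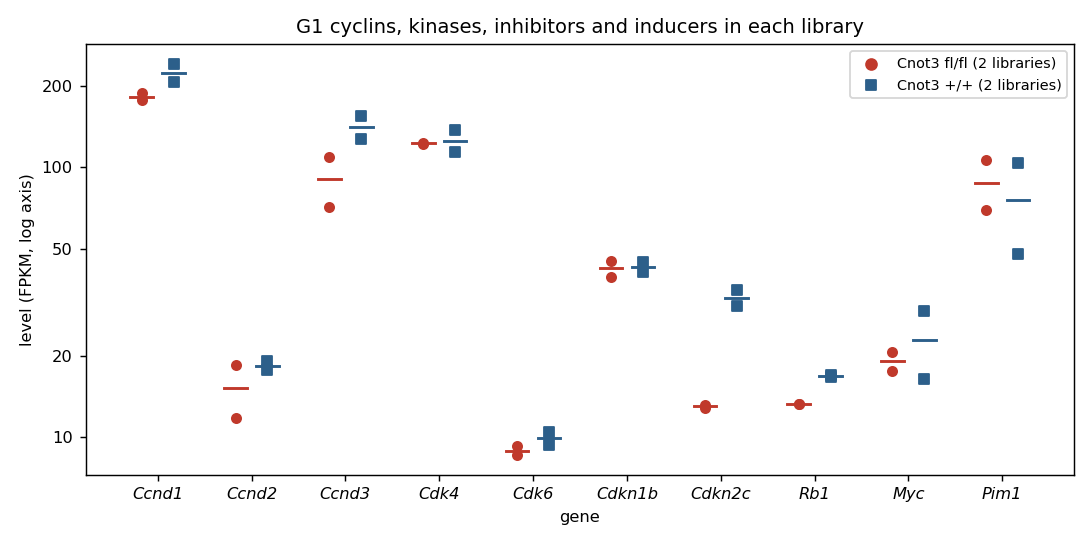
Level of each gene in each library (FPKM, log axis), with Cnot3 fl/fl as red circles, Cnot3 +/+ as blue squares and a bar at the mean of 2 libraries. Cdkn2c is near 13 FPKM in both Cnot3 fl/fl libraries and above 30 FPKM in both Cnot3 +/+ libraries, while the genotypes overlap for Ccnd2, Cdk4, Cdkn1b, Myc and Pim1.

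The inhibitor gene Cdkn2c was the one that fell. It was at 13.1 and 12.9 FPKM for Cnot3 fl/fl, against 35.1 and 30.6 FPKM for Cnot3 +/+. The genotypes were well apart, and every Cnot3 fl/fl library was at 0.367 to 0.429 of every Cnot3 +/+ library. The mean was 13 ± 0.19 FPKM for Cnot3 fl/fl, against 32.8 ± 3.14 FPKM for Cnot3 +/+ (SD, n = 2 each), 2.53-fold lower in Cnot3 fl/fl. The log2 fold change was -1.27 with a standard error of 0.10 (95% interval -1.52 to -1.02, limma adjusted p = 0.020), and 0.617% of all genes tested had a more negative one. The authors' deposited table gave Cdkn2c a q-value of 0.0022, and at a q-value under 0.05 it had 1.31% of its 23312 genes lower and 2.13% higher. Cdkn2c was the 1 gene of the 10 that passed there too. With any 1 library left out the log2 fold change was -1.36 to -1.17, but the adjusted p was 0.062 to 0.21, and with no filter on low values it was 0.064. The files' locus column, which can merge neighbouring genes, puts Cdkn2c at chr4:109333480-109337977 of mm9 and gives the mm9 loci named beside the genes that follow.

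The level of Cdkn2c was also set against its partners and its family within each library. Per 100 FPKM of Cdk4 and Cdk6 together, Cdkn2c was at 9.89 and 9.85 FPKM for Cnot3 fl/fl, against 28.2 and 20.8 FPKM for Cnot3 +/+. The summed level of the 4 INK4 genes was 22.4 and 23.3 FPKM for Cnot3 fl/fl, against 44.6 and 42.5 FPKM for Cnot3 +/+. Cdkn2c made up 58.6% and 55.3% of that sum in Cnot3 fl/fl, against 78.6% and 72.1% in Cnot3 +/+ libraries. The INK4 gene Cdkn2d, which encodes p19, was at 9.05 and 10.2 FPKM for Cnot3 fl/fl, against 9.48 and 11.0 FPKM for Cnot3 +/+, and these overlapped (log2 fold change -0.08, 95% interval -0.39 to 0.22). Cdkn2a and Cdkn2b were each under 1 FPKM in every library.

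Of 12 markers of pro-B cells, 6 were called lower, as Cdkn2c was, none higher and 6 not called. Over all genes tested, 3.28% were called lower and 6.22% higher. Without overlap 10 of the 12 were lower and 1 higher, beside 31.7% and 32.7% of all genes tested. The median log2 fold change of the 12 was -1.24. Of the 6 not called, Dntt was higher without overlap, at 244 and 255 FPKM for Cnot3 fl/fl, against 216 and 217 FPKM for Cnot3 +/+ (log2 fold change 0.20, limma adjusted p = 0.18). Blnk overlapped (log2 fold change 0.05), and for Cd79b the log2 fold change was -0.27 at a limma adjusted p of 0.28. Ebf1, Rag1 and Rag2, also not called, were lower without overlap, with log2 fold changes of -1.48, -1.51 and -1.22. Their limma adjusted p was 0.065, 0.092 and 0.080, and their q-values in the authors' deposited table were 0.0022, 0.0022 and 0.29. Rag2 was low, at 3.75 FPKM or less in every library. The summed level of all 12 was 761 to 772 FPKM for Cnot3 fl/fl, against 997 to 1392 FPKM for Cnot3 +/+. The B-cell receptor gene Cd79a, one of those called lower, was at 62.4 and 66.2 FPKM for Cnot3 fl/fl, against 111 and 152 FPKM for Cnot3 +/+. Per 100 FPKM of Cd79a, Cdkn2c was at 21.1 and 19.4 FPKM for Cnot3 fl/fl, against 31.7 and 20.1 FPKM for Cnot3 +/+. On this scale Cnot3 +/+ replicate 2 lay between the Cnot3 fl/fl values and Cnot3 +/+ replicate 1 above them. Per 100 FPKM of Siglech the genotypes stayed apart, at 1.18 and 0.967 FPKM for Cnot3 fl/fl, against 2.41 and 2.23 FPKM for Cnot3 +/+. The part of the pro-B share in the fall of Cdkn2c was not tested.

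Of 12 plasmacytoid dendritic cell markers, 1 was higher and 1 lower, with sums of 7996 to 9490 FPKM for Cnot3 fl/fl, against 9185 to 9489 FPKM for Cnot3 +/+. Of 14 neutrophil and monocyte markers, 3 were higher and none lower, with sums of 1279 to 1459 FPKM for Cnot3 fl/fl, against 964 to 1281 FPKM for Cnot3 +/+. Most of these sums was Ly6c2, which was not called (998 and 1247 FPKM for Cnot3 fl/fl, against 757 and 996 FPKM for Cnot3 +/+, limma adjusted p = 0.29). Without it, a choice made after its values were seen, the sums overlapped, at 281 and 212 FPKM for Cnot3 fl/fl, against 207 and 285 FPKM for Cnot3 +/+. Of the 14 single genes, 7 were higher without overlap and 1 lower, beside 32.7% and 31.7% of all genes tested. The 3 called were Ctsg, Elane and Itgam, each under 11 FPKM in every library. Of 13 T and NK cell markers, 2 were higher and none lower, with sums of 1254 to 1437 FPKM for Cnot3 fl/fl, against 1069 to 1176 FPKM for Cnot3 +/+. The 2 called were Cd8a and Cd8b1, which encode the chains of CD8. Cd8a was at 129 and 135 FPKM for Cnot3 fl/fl, against 15.7 and 25.7 FPKM for Cnot3 +/+. Without both, again a choice made after their values were seen, the sums overlapped, at 1140.4 and 931 FPKM for Cnot3 fl/fl, against 1127 and 983 FPKM for Cnot3 +/+. Among the 13 single genes, 5 were higher without overlap and 1 lower. The T-cell receptor gene Cd3e was at 10.9 and 4.67 FPKM for Cnot3 fl/fl, against 7.05 and 9.84 FPKM for Cnot3 +/+. Of 7 erythroid markers 4 were tested and 1 was lower, and the defining genes Klf1 and Epor were each under 1 FPKM in every library.

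**Figure D2:**
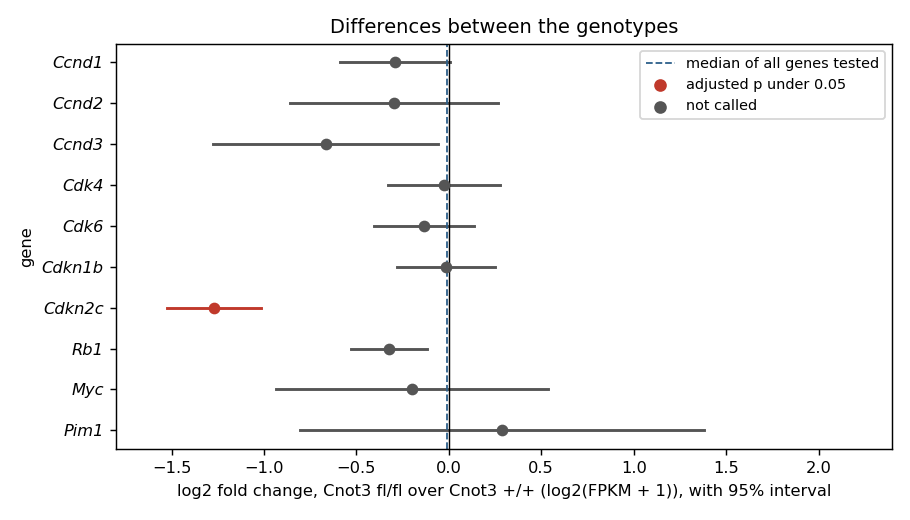
Log2 fold change of each gene, Cnot3 fl/fl over Cnot3 +/+, on the log2(FPKM + 1) scale with its 95% interval from limma. Red marks the adjusted p under 0.05, the dashed line the median of all 11017 genes tested, and Cdkn2c at -1.27 is the red point.

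The other inhibitor gene, Cdkn1b, was not called. It (chr6:134870418-134875543) was at 39.4 and 45.1 FPKM for Cnot3 fl/fl, against 40.9 and 44.6 FPKM for Cnot3 +/+, so that the genotypes overlapped. Its log2 fold change was -0.02 (95% interval -0.28 to 0.25, limma adjusted p = 0.92), an interval that leaves out a change of the size seen for Cdkn2c. Leaving out Cnot3 fl/fl replicate 1 gave 0.079, and leaving out Cnot3 +/+ replicate 2 gave 0.04. Per 100 FPKM of Cdkn1b, Cdkn2c was at 33.3 and 28.5 FPKM for Cnot3 fl/fl, against 85.8 and 68.7 FPKM for Cnot3 +/+. Among other CDK inhibitors, the p21 gene Cdkn1a was at 7.05 and 7.84 FPKM for Cnot3 fl/fl, against 4.38 and 10.0 FPKM for Cnot3 +/+, and Cdkn1c was under 1 FPKM in every library.

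The D-type cyclin genes had negative log2 fold changes, and none passed the test. Ccnd3 (chr17:47641999-47748441) was at 109.6 and 71.2 FPKM for Cnot3 fl/fl, against 128 and 155 FPKM for Cnot3 +/+. The genotypes did not overlap, but the 2 Cnot3 fl/fl libraries differed from each other by more than do those of 96.6% of the genes tested. The log2 fold change of Ccnd3 was -0.67 with a standard error of 0.23 (95% interval -1.28 to -0.06, limma adjusted p = 0.13), and the authors' deposited table gave a q-value of 0.064. It ranged from -0.97 without Cnot3 fl/fl replicate 1 to -0.36 without Cnot3 fl/fl replicate 2. Per 100 FPKM of Cd79a, Ccnd3 was at 176 and 108 FPKM for Cnot3 fl/fl, against 116 and 102 FPKM for Cnot3 +/+, where the genotypes overlapped.

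Ccnd1, which is generally little used by lymphocytes, was the most abundant of the 10 genes in every library. Ccnd1 (chr7:152115835-152125830) was at 178 and 189 FPKM for Cnot3 fl/fl, against 243 and 207 FPKM for Cnot3 +/+, without overlap. Its log2 fold change was -0.29 (95% interval -0.59 to 0.01, limma adjusted p = 0.16), and it was -0.17 without Cnot3 +/+ replicate 1. The plasmacytoid dendritic cell markers stood at 7996 to 9490 FPKM in sum beside it in the 4 libraries, and their part in its level was not tested. Ccnd2 (chr6:127075726-127162437) was at 18.5 and 11.8 FPKM for Cnot3 fl/fl, against 17.7 and 19.1 FPKM for Cnot3 +/+. Cnot3 fl/fl replicate 2 was the low library, and the other 3 lay close together. The log2 fold change of Ccnd2 was -0.29 (95% interval -0.86 to 0.27, limma adjusted p = 0.38), and it was 0.01 without Cnot3 fl/fl replicate 2.

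Summed, the 3 D-type cyclins were at 306 and 272 FPKM for Cnot3 fl/fl, against 388 and 381 FPKM for Cnot3 +/+. The make-up of this sum overlapped between genotypes. Ccnd1 took 58.1% and 69.4% of it in Cnot3 fl/fl and 62.5% and 54.2% in Cnot3 +/+ libraries. Ccnd3 took 35.8% and 26.2% in Cnot3 fl/fl and 32.9% and 40.8% in Cnot3 +/+ libraries. Ccnd2 took 4.35% to 6.05% over the 4 libraries. The ratio of the D-type cyclin sum to the sum of Cdk4 and Cdk6 was 2.30 and 2.08 in Cnot3 fl/fl and 3.12 and 2.59 in Cnot3 +/+ libraries.

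**Figure D3:**
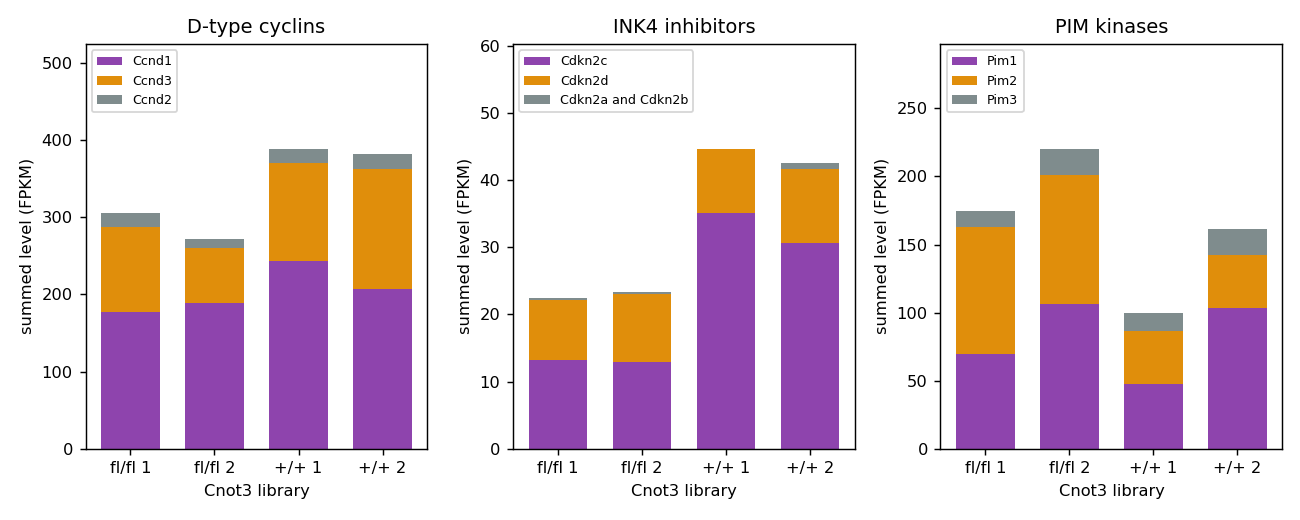
Summed level (FPKM) of the D-type cyclins, the INK4 inhibitors and the PIM kinases in each library, stacked by gene. The INK4 sum is 22.4 and 23.3 FPKM for Cnot3 fl/fl, against 44.6 and 42.5 FPKM for Cnot3 +/+, and the Pim2 share is larger in Cnot3 fl/fl libraries.

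The kinase genes differed little between the genotypes. Cdk4 (chr10:126500658-126504338) was at 124 and 122 FPKM for Cnot3 fl/fl, against 114 and 138 FPKM for Cnot3 +/+, with both Cnot3 fl/fl libraries between the Cnot3 +/+ ones. Its log2 fold change was -0.03 (95% interval -0.33 to 0.28, limma adjusted p = 0.89), and it was 0.11 without Cnot3 +/+ replicate 2. Cdk6 (chr5:3344311-3522225) was at 9.25 and 8.57 FPKM for Cnot3 fl/fl, against 10.4 and 9.34 FPKM for Cnot3 +/+, and was the lowest of the 10 genes in every library. Its genotypes were only just apart, and the log2 fold change was -0.13 (95% interval -0.41 to 0.14, limma adjusted p = 0.41). Leaving out Cnot3 fl/fl replicate 2 gave -0.08. Leaving out Cnot3 +/+ replicate 1 gave -0.06, and leaving out Cnot3 +/+ replicate 2 gave -0.21. Cdk4 made up 91.6% to 93.7% of the summed level of both kinases in the 4 libraries.

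Rb1, which encodes the Rb protein that these kinases phosphorylate, showed the tightest replicates of the 10. Rb1 (chr14:73595308-73725598) was at 13.3 FPKM in each Cnot3 fl/fl library, against 17.0 and 16.7 FPKM for Cnot3 +/+, without overlap. The mean was 1.27-fold lower in Cnot3 fl/fl, with a log2 fold change of -0.32 and a standard error of 0.08 (95% interval -0.53 to -0.12, limma adjusted p = 0.069), so Rb1 did not pass. The authors' deposited table gave it a q-value of 0.42. With any 1 library left out, its log2 fold change was -0.34 to -0.31.

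The inducers Myc and Pim1 varied more between replicates than between genotypes. Myc (chr15:61816895-61821916) was at 17.5 and 20.7 FPKM for Cnot3 fl/fl, against 16.5 and 29.4 FPKM for Cnot3 +/+. The Cnot3 fl/fl values lay between those of Cnot3 +/+, whose gap was wider than that of 96.0% of the genes tested. The log2 fold change of Myc was -0.20 (95% interval -0.94 to 0.54, limma adjusted p = 0.65), and it was 0.20 without Cnot3 +/+ replicate 2. Pim1 (chr17:29627989-29632404) was at 69.6 and 106 FPKM for Cnot3 fl/fl, against 47.6 and 104 FPKM for Cnot3 +/+, with replicate 2 the higher library in each genotype. Its log2 fold change was 0.29 (95% interval -0.81 to 1.38, limma adjusted p = 0.67), and it was 0.84 without Cnot3 +/+ replicate 2 and -0.27 without Cnot3 +/+ replicate 1.

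In every library Ccnd1 came first and Cdk6 last, with Cdkn1b at rank 5. Cdk4, Ccnd3 and Pim1 held ranks 2 to 4 in each library. For Cnot3 fl/fl the values of Ccnd3 and Pim1 overlapped and those of Cdk4 lay above both, and for Cnot3 +/+ the values of Ccnd3 and Cdk4 overlapped. For Cnot3 fl/fl the values of Ccnd2 also spanned those of Cdkn2c and Rb1, and Rb1 lay narrowly above Cdkn2c. Cdkn2c had ranks 9 and 8 among the 10 genes in the Cnot3 fl/fl libraries and 6 in both Cnot3 +/+ libraries. Over the 4 libraries the highest value was 1.15 times the lowest for Cdkn1b and 1.21 times for Cdk4, but 2.72 times for Cdkn2c, 2.23 times for Pim1 and 2.18 times for Ccnd3.

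Likeness of pattern over the 4 libraries was measured as the root mean square difference of centred log2 values, among 138 other genes of the lists. Cdkn2c was nearest to Cox6a2, a gene used as a plasmacytoid dendritic cell marker, at 0.26. Ccnd2 was nearest to the neutrophil granule genes Ngp and Ltf, at 0.05 and 0.08. Ccnd3 was nearest to the granule gene Camp, at 0.11, and to Ikzf3, which encodes the transcription factor Aiolos, at 0.12. With 4 libraries such likeness is only a description.

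Among 79 further genes of G1 control, 75 were tested, of which 2 were higher in Cnot3 fl/fl libraries, 3 lower and 70 not called. Over all genes tested, 6.22% were called higher and 3.28% lower. The median log2 fold change of the 75 was -0.21. Without overlap, the Cnot3 fl/fl pair was below the Cnot3 +/+ pair in 24 of the 75 and above it in 11. The shares of all genes tested were 31.7% and 32.7%. The gene called higher with the smallest p was Pim2, a PIM kinase like Pim1. Pim2 was at 93.5 and 94.9 FPKM for Cnot3 fl/fl, against 38.6 and 39.0 FPKM for Cnot3 +/+, with a wide gap between the genotypes. Its log2 fold change was 1.26 ± 0.07 (standard error) at a limma adjusted p of 0.018, and the authors' deposited table gave a q-value of 0.0022. The log2 fold change was 1.25 to 1.27 with any 1 library left out, where the adjusted p was 0.062 to 0.20, and the adjusted p was 0.058 with no filter on low values. Pim2 made up 53.6% and 43.1% of the summed PIM level in Cnot3 fl/fl and 38.6% and 24.2% in Cnot3 +/+ libraries, while Pim3 did not pass, with a log2 fold change of -0.12.

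The other 10 genes tested in the list of the MYC network and PIM kinases were not called. Mycl1, which encodes L-Myc, was at 96.3 and 139 FPKM for Cnot3 fl/fl, against 87.6 and 84.9 FPKM for Cnot3 +/+ (limma adjusted p = 0.19), above Myc in every library on the FPKM scale. For Max, which encodes the partner of Myc proteins, the log2 fold change was 0.18 at a limma adjusted p of 0.19. Mycn was under 1 FPKM in every library.

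Of 12 genes for E2F and pocket proteins, 1 fell, none rose and 11 were not called, with a median log2 fold change of -0.34. Tfdp1, which encodes a dimer partner of E2F, was at 9.91 and 10.0 FPKM for Cnot3 fl/fl, against 15.0 and 18.3 FPKM for Cnot3 +/+, and its log2 fold change was -0.68 at a limma adjusted p of 0.043. It lost the call with eBayes without the trend (adjusted p = 0.057), and its q-value in the authors' deposited table was 0.063. E2f2 was at 5.76 and 5.09 FPKM for Cnot3 fl/fl, against 9.97 and 18.9 FPKM for Cnot3 +/+, without overlap (log2 fold change -1.20, limma adjusted p = 0.071), and the authors' deposited table gave it a q-value of 0.0022. E2f5 and E2f6 had log2 fold changes of -0.48 and -0.36 (limma adjusted p = 0.069 and 0.089). E2f1 had a log2 fold change of 0.0026, and the Rb relatives Rbl1 and Rbl2 had -0.25 and 0.06, with no call.

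**Figure D4:**
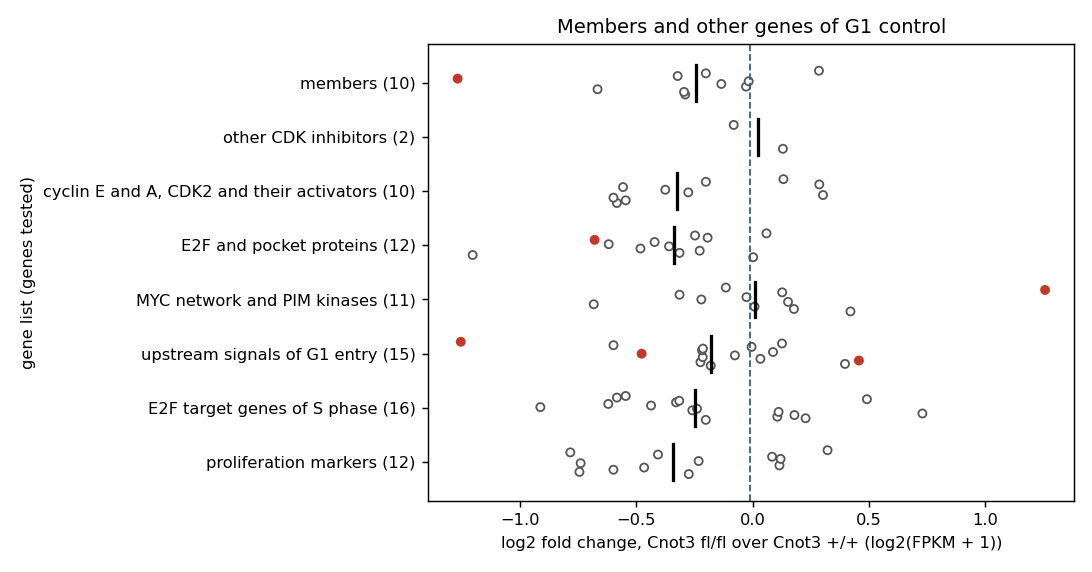
Log2 fold changes, Cnot3 fl/fl over Cnot3 +/+, of the 10 genes (members) and of each list of other G1 genes, with the number tested in brackets. Filled red points passed the adjusted p of 0.05, black bars are list medians, and the dashed line is the median of all genes tested.

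Of 15 upstream signal genes, 1 rose, 2 fell and 12 were not called, with a median log2 fold change of -0.18. Stat5a, a mediator of interleukin-7 signals, was at 34.6 and 35.8 FPKM for Cnot3 fl/fl, against 26.3 and 24.4 FPKM for Cnot3 +/+ (log2 fold change 0.46, limma adjusted p = 0.043). The B-lineage factor gene Pax5 was at 12.5 and 9.62 FPKM for Cnot3 fl/fl, against 22.5 and 33.8 FPKM for Cnot3 +/+ (log2 fold change -1.26, limma adjusted p = 0.045). The authors' deposited table gave q-values of 0.14 for Stat5a and 0.0022 for Pax5. Stat5a and Pax5 lost their calls with eBayes without the trend (adjusted p = 0.062 and 0.061) and with the replicate number as a block (adjusted p = 0.056 and 0.055). With no filter on low values the adjusted p of Tfdp1, Stat5a and Pax5 was 0.070 to 0.093, and with 1 library left out 0.086 to 0.23. The receptor gene Il7r overlapped between the genotypes, at 71.6 and 54.7 FPKM for Cnot3 fl/fl, against 76.2 and 66.2 FPKM for Cnot3 +/+ (limma adjusted p = 0.46).

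None of the 10 genes of cyclins E and A, CDK2 and their activators was called, and their median log2 fold change was -0.33, or -0.12 without Cnot3 +/+ replicate 2. The smallest adjusted p there was 0.16, for the phosphatase gene Cdc25a. Cdk2 was at 30.04 and 26.3 FPKM for Cnot3 fl/fl, against 20.2 and 25.3 FPKM for Cnot3 +/+ (limma adjusted p = 0.20).

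Of 16 E2F target genes of S phase and 12 proliferation markers, limma called none either way. Their median log2 fold changes were -0.25 and -0.34, but without Cnot3 +/+ replicate 2 they were 0.06 and 0.24. Over the 11 E2F targets with a mean of at least 5 FPKM the median was 0.11. At a q-value under 0.05 the authors' deposited table had 3 of the 12 proliferation markers lower, beside 1.31% of its 23312 genes. These were Top2a, Cdk1 and Birc5 (q-values 0.0022, 0.010 and 0.024), and for each the genotypes overlapped. Top2a, the topoisomerase gene of dividing cells, was at 23.2 and 17.1 FPKM for Cnot3 fl/fl, against 19.8 and 58.2 FPKM for Cnot3 +/+. Only Cnot3 +/+ replicate 2 was high, and it was the highest library in 12 of the 16 E2F targets and in all 12 proliferation markers. Myc, Ccnd2, Ccnd3 and Cdk4 also had their highest value in that library, and Cdkn2c had its own in Cnot3 +/+ replicate 1.

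**Figure D5:**
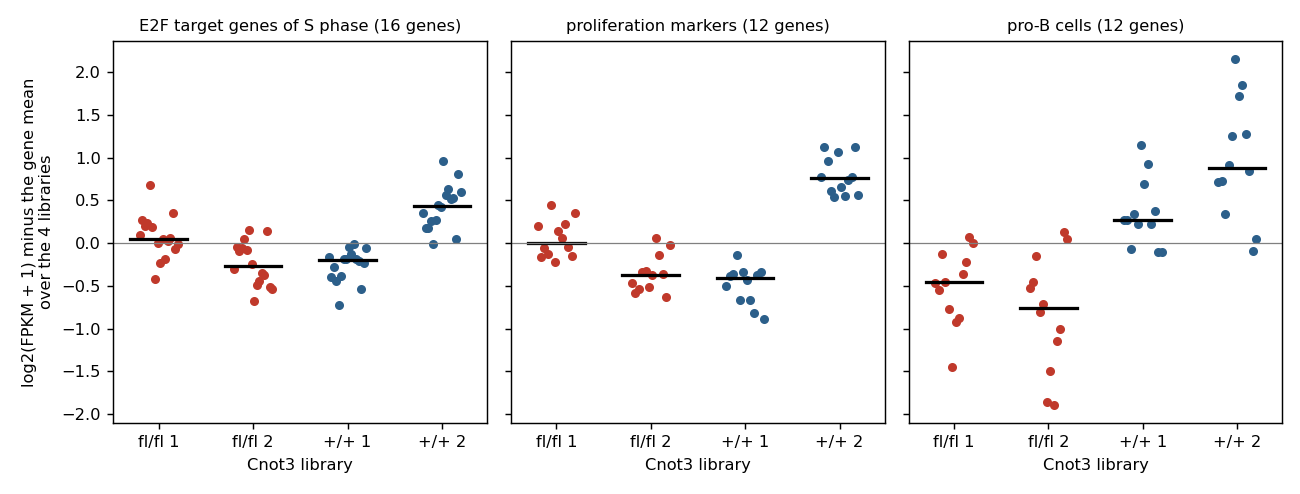
Centred log2(FPKM + 1) values by library for E2F target genes, proliferation markers and pro-B markers, with Cnot3 fl/fl in red, Cnot3 +/+ in blue, a point per gene and a bar at the median. Cnot3 +/+ replicate 2 is highest in 12 of 16, 12 of 12 and 10 of 12 genes.

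Several of the 10 genes overlap genes on the other strand in the GENCODE M21 annotation of GRCm38. Ccnd3 overlaps Bysl, Cdk4 overlaps Tspan31, Rb1 overlaps Rcbtb2 and Lpar6, and Ccnd2 overlaps 9330179D12Rik. Ccnd1 overlaps the protein-coding gene LTO1, and Cdk6 and Pim1 overlap antisense genes, none of them listed under those names for the libraries. Whether the authors' counting used strand is not stated, so reads of such pairs may not have been told apart. No annotated gene overlapped Cdkn2c, Cdkn1b or Myc.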

How the data were processed

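RNA was measured in 4 libraries, 2 per genotype, prepared with a stranded mRNA kit per the labels' protocols. Tools named in the submitters' processing notes are Cufflinks 2.2.1, Cuffnorm 2.2.1, TopHat2 2.0.13, Bowtie2 2.2.3.0 and bcl2fastq 1.8.4, with build mm9. What each did, the annotation and the scaling were not given in the sources used here. Deposited were FPKM values per gene and library, per the file headers, and the authors' table comparing the genotypes, whose q-value (a p-value adjusted by the authors) is used only where named.

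FPKM values are not counts, so log2(FPKM + 1) was tested with limma 3.58.1 in R 4.3.3 (trended eBayes, two-sided, genotype as the only term) over 11017 genes averaging 1 FPKM or more, with Benjamini-Hochberg adjustment and calls at 0.05. The fit had 2 residual and 2.69 prior degrees of freedom. The test was checked on simulated data. It called 2% of simulated log2 changes of 0.5, 52.8% of those of 1 and 94% of those of 2. A gene not called is therefore not shown to be unchanged. Fold changes on this scale understate those of low genes, and folds in words are ratios of mean FPKM. FPKM divides by transcript length, so levels were set side by side between genes. Such comparisons are approximate, because the annotation was not given and reads of overlapping genes may be counted in. The limma p-values rest on the spread between these libraries, which eBayes moderates for each gene toward that of genes of similar level.

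The 10 genes and the lists were chosen with earlier results of these data known. Named were all 10 genes, and from each list the genes called and up to 4 with the smallest p, plus abundant markers; some called markers of other cells are given as counts. A few genes that this rule takes are counted in their lists but not reported here. Values of a few other list genes, such as Mycl1, Cd3e, Blnk, Cd79b, Ebf1, Rag1, Rag2, Top2a and the low inhibitors, were named after they were seen. The sums without Ly6c2, Cd8a and Cd8b1 were chosen so too. Mycl was matched through its older symbol Mycl1. Alternatives covered pseudocounts, filters, scaling, variance models, a replicate block, left-out libraries and the authors' q-values.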

Additional observations from a re-analysis of the deposited data

How the results depend on the processing

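Of 140 values of the 10 log2 fold changes under 14 alternatives, 128 kept their direction and their side of the threshold, 7 changed sign and 5 lost the call, all 5 of Cdkn2c. The sign changes came with 1 library left out, which gave log2 fold changes of -0.60 to 0.0077 for Ccnd2, -0.17 to 0.11 for Cdk4, -0.11 to 0.079 for Cdkn1b, -0.60 to 0.20 for Myc and -0.27 to 0.84 for Pim1. They were positive for Ccnd2 without Cnot3 fl/fl replicate 2 (0.0077), for Cdk4 (0.11), Myc (0.20) and Cdkn1b (0.04) without Cnot3 +/+ replicate 2, and for Cdkn1b without Cnot3 fl/fl replicate 1 (0.079). They were negative for Pim1, at -0.27 without Cnot3 +/+ replicate 1 and at -0.02 without Cnot3 fl/fl replicate 2. With no filter on low values, 4 genes were called higher and 1 lower in all, against 685 and 361, and 0 of the 10 genes and 0 of the other G1 genes. With eBayes without the trend, 242 were higher and 69 lower, and 1 and 0 of the other G1 genes. With 1 library left out, 2 to 18 were higher and 0 to 13 lower, and 0 of the 10 genes and 0 of the other G1 genes in each case. By the authors' deposited q-values, 7 of the other G1 genes were lower. With the replicate block, 456 genes were higher, 1 of the other G1 genes was higher and 1 lower, and Cdkn2c kept its call (adjusted p = 0.029). Same-numbered libraries deviated together with a correlation of 0.14 over genes, and only 2 numbers were shared, so the numbers do not show pairs. A library left alone in its genotype was assumed to vary like the others. The causes of these changes were not tested. Absolute depth is unknown.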

Other observations

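Among the E2F target genes the authors' deposited table marked 1 as higher and 1 as lower in Cnot3 fl/fl libraries, neither of which limma called. Mcm6, a subunit gene of the replicative helicase, was at 82.9 and 53.3 FPKM for Cnot3 fl/fl, against 30.7 and 51.2 FPKM for Cnot3 +/+ (log2 fold change 0.73, limma adjusted p = 0.19, q-value 0.015 in the authors' deposited table). Rrm2, a subunit gene of ribonucleotide reductase, was at 12.9 and 9.19 FPKM for Cnot3 fl/fl, against 14.8 and 30.8 FPKM for Cnot3 +/+ (log2 fold change -0.91, limma adjusted p = 0.16, q-value 0.0022 in the authors' deposited table). The genotypes did not overlap for either gene, by a narrow margin. These genes were chosen after their values were seen.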
